A study of Mus musculus with 6 samples.

Results

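The genes that build cholesterol and fatty acids were measured in mouse hepatic stellate cells in culture. These cells lie beside the liver sinusoids and store retinoids, and the libraries are labelled WT (wild type) or Nbr1KO (knock-out of Nbr1, a receptor of selective autophagy). The set was given as a list of 30 symbols, 19 of the sterol branch and 11 of the fatty acid branch, and all 30 are rows of the 13341-gene table. Each genotype label covers 3 libraries, called biological replicates, and nothing says whether they came from separate animals, so the p-values below measure the spread between these libraries. All cells grew for 4 days in DMEM with 10% fetal bovine serum, glutamine and antibiotics under basal conditions, and no other allele or agent is named. The sources used here do not say how the knock-out was made or whether the cells were primary or a line. RNA was read from transcript 3' ends, and levels are normalized counts, in which each library's reads are scaled by a factor of that library.

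Cells make cholesterol from acetyl-CoA through mevalonate, squalene and lanosterol, and fatty acids from acetyl-CoA through malonyl-CoA. Both routes are controlled by SREBP transcription factors, membrane proteins of the endoplasmic reticulum that are carried to the Golgi and cut free when sterols run low. The product of Srebf2 acts mainly on sterol genes and that of Srebf1 mainly on fatty acid genes, while INSIG proteins hold the precursors back. In stellate cells lipid stores are a mark of the quiescent state.

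Facts of the series bear on these genes in several ways. Reads per library ranged from 1508518 to 2383879. Nbr1 stood at 256.9 ± 46.1 normalized counts in the WT label and 189.2 ± 14.1 in the Nbr1KO label (SD, n = 3 each; limma adjusted p = 0.22), and 3' reads cannot check a deletion elsewhere in the gene. Sqstm1, which encodes p62, stood at 15.9 ± 7.1 against 773.7 ± 113.7, a low level in the WT label for a widely expressed gene, so each direction below rests on the labels. The libraries also fell into 2 sets across the genotype labels when all genes but the members were clustered by their deviations from the group means. WT library 1 joined Nbr1KO libraries 1 and 3, and WT libraries 2 and 3 joined Nbr1KO library 2. Of the markers of stellate cells, 7 of 14 were rows of the table, Col1a1, Acta2 and Pdgfrb among them, while Lrat, Des and Reln had no row in the table used here. Of the 7 present, 6 were called higher in the Nbr1KO label by limma, beside 4.67% of all tested genes. The summed level of the 7 was 4213.3 to 5350.5 in the WT label and 11625.1 to 14377.0 in the Nbr1KO label.

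Of the 30 genes, 29 passed the filter on low values (at least 10 normalized counts in at least 3 libraries), and Idi1 did not. In limma, with adjustment over all 10540 tested genes, 3 members rose in the Nbr1KO label and 0 fell. They are Msmo1, Cyp51 and Sqle, all of the sterol branch. Among all tested genes 4.67% were called higher and 2.25% lower (6.92% in either direction), beside 3 of 18 tested sterol genes and 0 of 11 fatty acid genes. Sqle oxidizes squalene, and Cyp51 and Msmo1 act where lanosterol loses its methyl groups. Lss, which acts between Sqle and Cyp51, was not called (limma adjusted p = 0.232). edgeR called the same 3 members, where 7.27% of all tested genes were called (5% higher, 2.27% lower). DESeq2 called these and Mvk, where 9.02% were called (5.74% higher, 3.28% lower). Groups did not overlap for 11 members higher in the Nbr1KO label, where the share among all tested genes was 16.5%, and for 1 member lower, where it was 13.6%.

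The start-site windows of 2 genes that rose are shown with those of 2 further sterol genes, since SREBP is known to act on such promoters together with the factors NF-Y and Sp1. Windows run from 250 bases before to 50 after an annotated start, from RefSeq on GRCm38.p6, and 23 of the 30 members matched by symbol, 3 of them with more than 1 window. Capitals mark any of 3 motifs on either strand, namely the sterol regulatory element written as TCACNCCAC, the NF-Y box CCAAT and the Sp1-type GC box GGGCGG. No 2 different motifs overlap in these 4 windows. Msmo1 and Cyp51 are shown because they rose, Mvk because it had the largest change of the early enzymes, and Hmgcs1 because its window held the sterol regulatory element letters. Sqle also rose but had no window matched by symbol, so it is absent from the motif counts.
Msmo1, chr8:64733529-64733828, minus strand: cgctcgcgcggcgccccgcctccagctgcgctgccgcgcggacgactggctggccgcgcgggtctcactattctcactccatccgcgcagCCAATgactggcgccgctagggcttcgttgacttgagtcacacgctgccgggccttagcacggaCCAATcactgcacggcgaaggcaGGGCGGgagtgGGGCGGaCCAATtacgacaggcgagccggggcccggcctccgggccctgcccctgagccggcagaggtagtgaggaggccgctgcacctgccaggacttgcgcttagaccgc
Cyp51, chr5:4104648-4104947, minus strand: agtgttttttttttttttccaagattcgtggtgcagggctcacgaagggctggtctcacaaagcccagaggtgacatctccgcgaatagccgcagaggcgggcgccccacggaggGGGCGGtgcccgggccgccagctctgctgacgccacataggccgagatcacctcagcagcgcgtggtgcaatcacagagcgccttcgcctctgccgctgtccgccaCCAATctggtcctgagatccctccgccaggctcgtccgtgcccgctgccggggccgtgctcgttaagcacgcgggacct
Mvk, chr5:114444019-114444318, plus strand: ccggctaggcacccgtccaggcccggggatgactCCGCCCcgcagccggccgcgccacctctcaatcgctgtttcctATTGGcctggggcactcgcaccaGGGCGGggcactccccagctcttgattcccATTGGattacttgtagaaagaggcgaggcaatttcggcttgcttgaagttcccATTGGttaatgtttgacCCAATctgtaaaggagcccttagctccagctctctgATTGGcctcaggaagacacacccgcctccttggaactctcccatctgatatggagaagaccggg
Hmgcs1, chr13:119690101-119690400, plus strand: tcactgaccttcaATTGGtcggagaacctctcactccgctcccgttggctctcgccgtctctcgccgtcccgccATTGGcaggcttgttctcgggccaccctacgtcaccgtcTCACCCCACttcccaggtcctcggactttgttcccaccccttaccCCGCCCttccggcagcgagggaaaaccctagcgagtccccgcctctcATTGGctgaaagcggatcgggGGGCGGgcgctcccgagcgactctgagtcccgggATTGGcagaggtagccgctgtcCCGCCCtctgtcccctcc

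The sterol element letters were found in 1 of 28 member windows (3.57%) and in 1.24% of all 32851 windows, or 1.07% of those of tested genes. The NF-Y letters were in 14 of 18 sterol windows (77.8%) and 6 of 10 fatty acid windows (60%), against 37.4% of all windows and 38.4% of those of tested genes. Msmo1 held 3 such matches, Cyp51 1, Mvk 5 and Hmgcs1 4. GC box letters were in 15 of 18 sterol windows (83.3%) and 5 of 10 fatty acid windows (50%), against 35.7% of all windows and 64.9% of those of tested genes. These are matches of letters, and they show neither binding nor a cause of the changes.

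**Figure D1:**
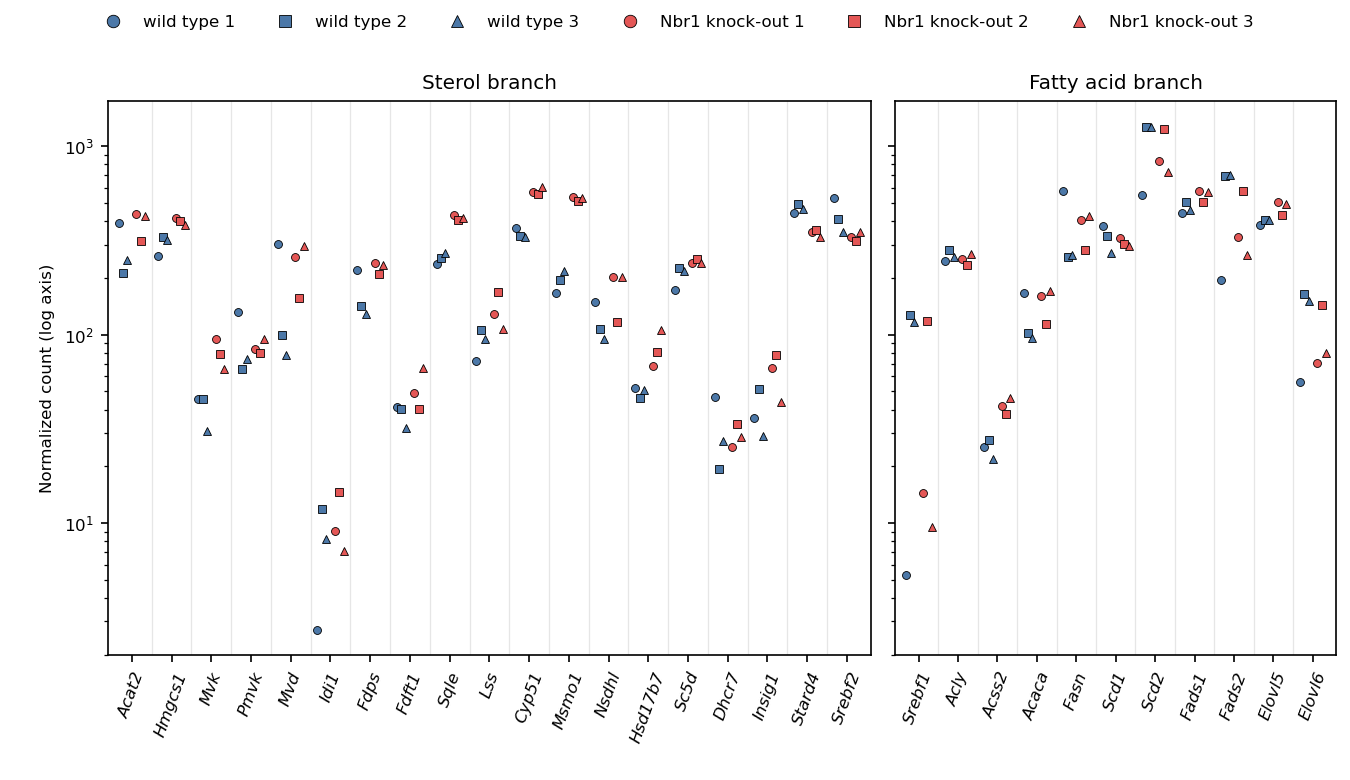
Normalized count of each of the 30 genes in each library, on a log axis, with the sterol branch on the left and the fatty acid branch on the right; colour gives the genotype label and shape the library number. The 3 Nbr1KO points of Msmo1, Cyp51 and Sqle lie above the 3 WT points, while Srebf1 splits by library rather than by label.

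The early mevalonate enzymes, which turn acetyl-CoA into farnesyl diphosphate, stood mostly higher in the Nbr1KO label, but none passed the test. Of 6 tested, 5 had a positive log2 change, or 83.3%, beside 48.9% of all tested genes. The median was 0.51 beside -0.01 for all tested genes. Within the set of WT library 1 the median of these enzymes was 0.11, and within the other library set 0.55. An unadjusted limma p under 0.05 was found for 2, or 33.3%, beside 22.6% of all tested genes. edgeR called 0 and DESeq2 1, Mvk, where they called 7.27% and 9.02% of all tested genes. Mvk, mevalonate kinase, had 45.4, 45.3 and 30.9 normalized counts in WT libraries 1 to 3 and 95, 79.1 and 65.3 in Nbr1KO libraries 1 to 3. Every Nbr1KO library lay above every WT library, a 1.97-fold ratio of means (log2 change 0.97, SE 0.24, 95% interval 0.38 to 1.55, adjusted p = 0.0681). The gene was called in DESeq2 and without WT library 1 (adjusted p = 0.0274 in that limma fit). The fit without WT library 1, cited for other genes below, called 21.1% of all tested genes, against 6.92% with all libraries.

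Hmgcs1, the synthase that makes the direct precursor of mevalonate, stood at 261.5, 330.0 and 319.6 normalized counts against 416.4, 401.4 and 380.9. The groups were apart, with a log2 change of 0.40 (interval 0.06 to 0.74, limma adjusted p = 0.157). Pmvk, phosphomevalonate kinase, had almost the same mean in both labels, 90.7 ± 36.1 and 86.3 ± 7.7, and its log2 change of 0.00 had an interval of -0.68 to 0.67. Mvd, mevalonate diphosphate decarboxylase, was spread widely within both labels, with 302.9, 99.9 and 78.1 against 258.9, 157.3 and 295.5. Its 3 high values came from WT library 1 and Nbr1KO libraries 1 and 3. Fdps, which makes farnesyl diphosphate, had 221.5, 141.1 and 128.0 normalized counts against 239.0, 210.6 and 233.8 (log2 change 0.52, interval -0.03 to 1.06). Acat2, which makes acetoacetyl-CoA, had 392.2, 212.5 and 248.8 against 434.5, 315.4 and 426.0 (log2 change 0.50, interval -0.12 to 1.11). In both, the same 3 libraries as for Mvd were the highest. All of Mvd, Fdps and Acat2 were called higher without WT library 1 (limma adjusted p = 0.0162, 0.0109 and 0.0253). That fit sets WT libraries 2 and 3, of 1 library set, against Nbr1KO libraries of which 1 and 3 belong to the other set. Label and set are therefore mixed in these calls, as in every call from this fit. Within the set of WT library 1 the log2 changes of Mvd, Fdps and Acat2 were -0.13, 0.09 and 0.13. Idi1, the isomerase of the pathway, was near the limit of detection, with 2, 14 and 9 reads in the WT libraries and 10, 17 and 6 in the Nbr1KO libraries, and was not tested.

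The enzymes that make squalene and close it to lanosterol were all on the positive side, and Sqle passed. Sqle, the monooxygenase that adds oxygen to squalene, had 237.5, 254.5 and 272.4 normalized counts in the WT label and 431.8, 408.2 and 417.7 in the Nbr1KO label. The groups lay far apart compared with their spread, and the mean was 1.65-fold higher (log2 change 0.72, SE 0.13, limma adjusted p = 0.0192). Lss, lanosterol synthase, had 72.0, 105.8 and 95.3 against 128.5, 167.6 and 106.8, which did not pass (log2 change 0.55, interval -0.01 to 1.11). The lowest Nbr1KO value of Lss was 106.8 and the highest WT value 105.8, so the groups barely separate. Fdft1, squalene synthase, had 41.4, 40.3 and 31.8 against 48.9, 40.4 and 66.4, which overlap (log2 change 0.43, interval -0.17 to 1.03). The 3' end of Fdft1 lies under Ctsb on the opposite strand, a gene at 438.4 normalized counts in the WT label and 450.3 in the Nbr1KO label.

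Among the enzymes after lanosterol, 2 of 6 rose, and 5 of 6 had a positive log2 change (median 0.64). Of all tested genes 4.67% were called higher and 48.9% had a positive log2 change (median -0.01). Msmo1, the oxidase that starts removal of the methyl groups at carbon 4 of the sterol, had 166.8, 195.7 and 217.0 normalized counts against 537.7, 514.0 and 534.0. It had the largest change among the members (log2 change 1.46, SE 0.14, interval 1.11 to 1.80, limma adjusted p = 0.00234). It was called under each of 16 other settings, the 6 that leave out 1 library among them. Cyp51, the lanosterol demethylase, had 366.9, 333.4 and 330.5 against 574.8, 555.2 and 611.1, a 1.69-fold higher mean (log2 change 0.76, SE 0.12, adjusted p = 0.0145). The calls of Cyp51 and Sqle were lost without any of the 3 Nbr1KO libraries or WT libraries 2 and 3. Without any 1 of these 5 libraries the limma adjusted p was 0.0522 to 0.104 for Cyp51 and 0.0626 to 0.135 for Sqle. Without WT library 1 it was 0.00359 and 0.00847. The log2 change was 0.72 to 0.8 for Cyp51 and 0.67 to 0.77 for Sqle with each library left out. In the 5 fits that lost these calls, 200 to 338 genes were called over the whole table, against 729 with all libraries. In the annotation used here Cyp51 shares its 3' end with Akap9 on the opposite strand, and whether counting used strand is not given. Akap9 had 282.3 normalized counts in the WT label and 244.5 in the Nbr1KO label.

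Hsd17b7, a ketoreductase of the same demethylation steps, had 52.0, 46.2 and 50.8 normalized counts against 67.9, 80.8 and 105.6. Its groups were apart, with a log2 change of 0.74 (interval 0.23 to 1.25, limma adjusted p = 0.0993). Hsd17b7 was called without WT library 1 (limma adjusted p = 0.0499), where 12.1% of all tested genes were called higher. Nsdhl, the dehydrogenase that acts beside Msmo1, had 148.1, 107.5 and 94.4 against 202.8, 116.0 and 201.7, which overlap (log2 change 0.55, interval -0.12 to 1.22). Sc5d, a desaturase near the end of the route, had 172.1, 225.1 and 217.9 against 240.8, 251.8 and 238.5, apart by a small margin (log2 change 0.26, interval -0.11 to 0.63). Dhcr7, the final reductase, had 46.7, 19.3 and 27.2 against 25.3, 33.5 and 28.5, and its log2 change of -0.01 had a wide interval of -0.84 to 0.82.

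Of the 3 sterol branch genes that are not enzymes, none passed the test, and 1 had a positive and 2 a negative log2 change. Stard4, a carrier that moves cholesterol between membranes, had 442.9, 495.5 and 462.1 normalized counts in the WT label and 348.5, 360.1 and 329.9 in the Nbr1KO label. It was the member whose Nbr1KO values all lay below the WT values (log2 change -0.43, interval -0.72 to -0.14, limma adjusted p = 0.092). Without WT library 1 it was called lower (limma adjusted p = 0.0281), where 9.02% of all tested genes were called lower. Srebf2, the gene of the main sterol regulator, had 528.3, 409.0 and 349.6 against 331.3, 312.8 and 351.2, with overlapping groups and a log2 change of -0.35 (interval -0.77 to 0.07). Insig1, which encodes an anchor that keeps SREBP in the endoplasmic reticulum, had 36.0, 51.2 and 29.1 against 66.1, 78.2 and 43.9 (log2 change 0.68, interval -0.05 to 1.41).

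**Figure D2:**
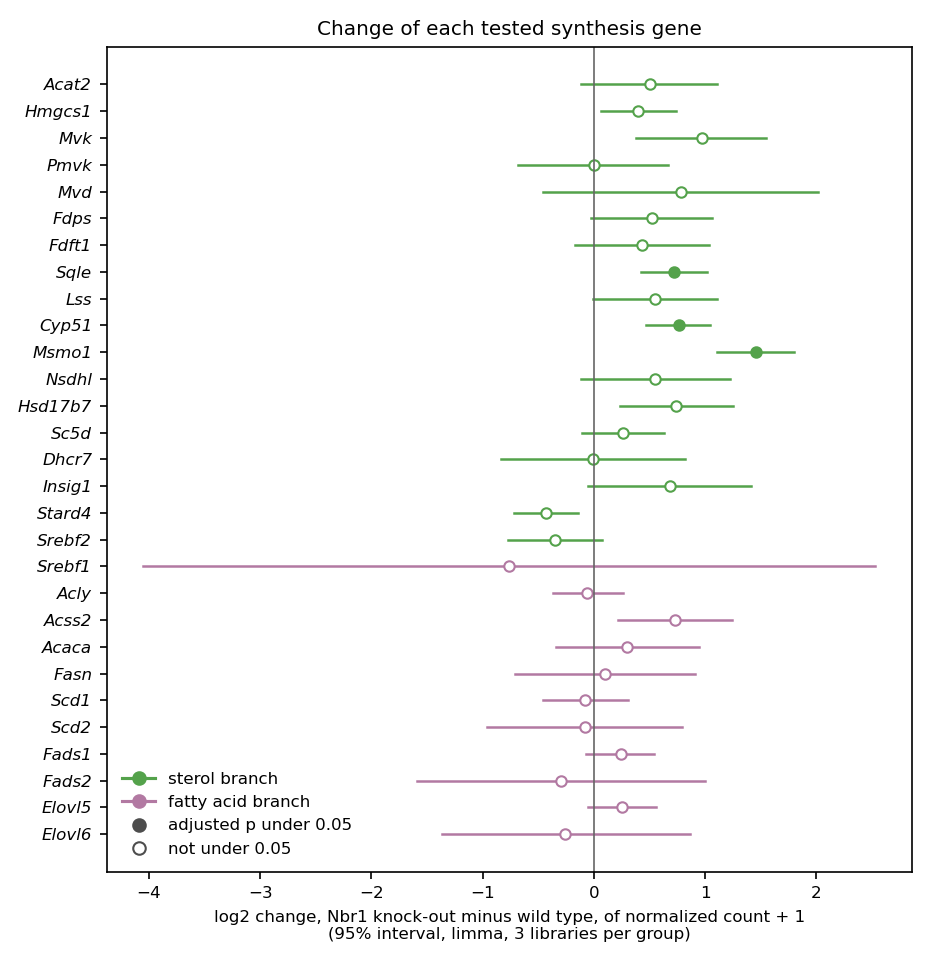
Log2 change of each of the 29 tested genes, knock-out minus wild type, with 95% intervals from limma; filled points have an adjusted p under 0.05. Msmo1, Cyp51 and Sqle are filled, most other sterol enzymes lie to the right of 0, and the interval of Srebf1 runs from -4.05 to 2.53.

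No gene of the fatty acid branch passed the test. Of 11 tested, 5 had a positive and 6 a negative log2 change (median -0.06), 0 were called by limma, edgeR or DESeq2, and 1, Acss2, had an unadjusted p under 0.05. That is 9.09% of the branch, beside 22.6% of all tested genes. Acss2, which makes acetyl-CoA from acetate, had 25.3, 27.7 and 21.8 normalized counts against 41.6, 37.8 and 46.3. Its groups were apart (log2 change 0.73, interval 0.22 to 1.24, limma adjusted p = 0.1). Its 3' end lies under Gss on the opposite strand, at 28.9 and 26.0 normalized counts, so with strand use unknown some reads could belong to either gene.

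Acly, which makes acetyl-CoA from citrate, had 246.8, 280.5 and 256.9 against 250.7, 235.5 and 268.2, and its log2 change of -0.06 had an interval of -0.37 to 0.26. Acaca, the carboxylase that makes malonyl-CoA, and Fasn, fatty acid synthase, overlapped between labels. Fasn had 575.0, 257.0 and 266.0 normalized counts against 403.7, 282.8 and 426.0, high in WT library 1 and in Nbr1KO libraries 1 and 3. Acaca had 165.4, 102.5 and 96.2 against 159.3, 113.4 and 169.7, the same arrangement as Fasn.

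Desaturases put double bonds into fatty acids and elongases lengthen them. Fads1, the delta-5 desaturase, had 444.3, 504.7 and 457.6 normalized counts against 581.2, 506.2 and 569.6, apart by a narrow margin (log2 change 0.24, interval -0.07 to 0.54, limma adjusted p = 0.34). Elovl5, an elongase of polyunsaturated fatty acids, had 380.2, 408.1 and 406.8 against 503.3, 428.9 and 496.0 (log2 change 0.25, interval -0.05 to 0.56, adjusted p = 0.307). Both were highest in Nbr1KO libraries 1 and 3. Scd1, a stearoyl-CoA desaturase, stood at 378.9, 334.2 and 271.5 normalized counts against 326.8, 301.7 and 296.6, with an interval of -0.46 to 0.31. Scd1 and Scd2 are similar genes, so the split of reads between them is uncertain.

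Srebf1, Fads2, Elovl6 and Scd2 differed more between the library sets than between the labels. Srebf1 had 5.3, 126.8 and 116.2 normalized counts in WT libraries 1 to 3 and 14.5, 118.6 and 9.5 in Nbr1KO libraries 1 to 3, which is 4, 151 and 128 reads against 16, 138 and 8. The low values are WT library 1 and Nbr1KO libraries 1 and 3, and the log2 difference of the other set over this one was 3.75 with genotype in the model. Rai1, whose annotated span covers the 3' end of Srebf1 on the opposite strand, had 72.0, 129.3 and 139.8 against 98.7, 110.9 and 103.2, a much smaller spread than Srebf1.

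Fads2, the delta-6 desaturase, had 194.8, 692.0 and 702.7 normalized counts against 329.5, 580.1 and 265.8. Elovl6, which lengthens saturated fatty acids, had 56.0, 164.6 and 150.7 against 70.6, 144.4 and 79.5. Scd2, the second stearoyl-CoA desaturase, had 549.7, 1271.5 and 1269.3 against 831.0, 1229.9 and 728.6. In all of these WT libraries 2 and 3 and Nbr1KO library 2 were the high ones, by log2 differences of 1.40, 1.21 and 0.93. Mvd and Fasn ran the opposite way, at -1.29 and -0.84. A difference between sets of more than 1 on the log2 scale was found for 1 of 18 sterol genes (5.56%), 3 of 11 fatty acid genes (27.3%) and 12.9% of all tested genes. The sets were drawn from these data, so these differences are given without a test, and what separates the sets was not tested.

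**Figure D3:**
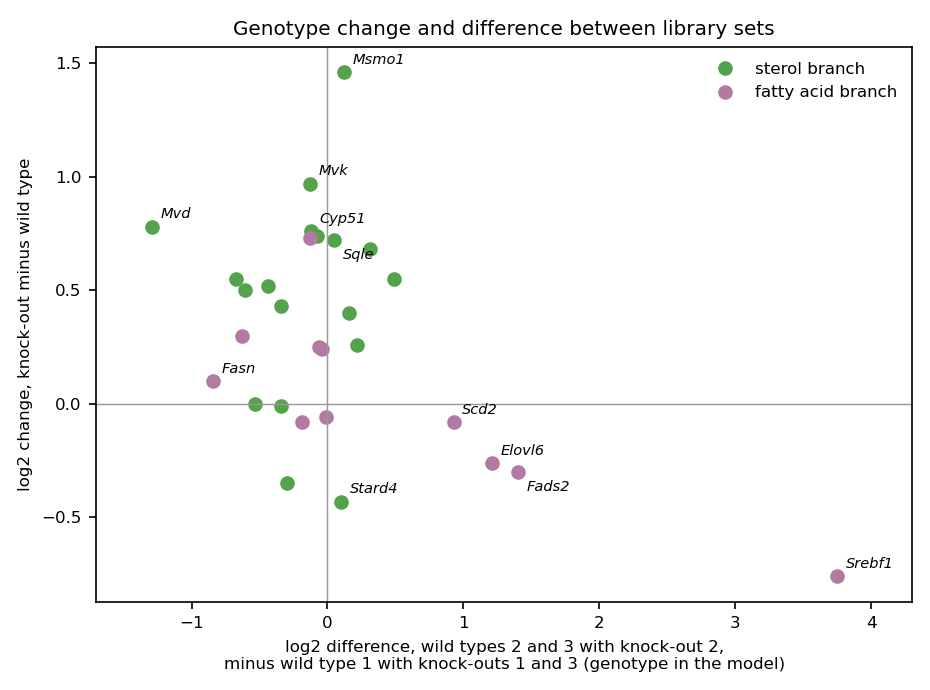
Each tested member by its log2 difference between the library sets (horizontal, wild types 2 and 3 with knock-out 2 minus the other libraries) and its log2 change between genotype labels (vertical). Msmo1 lies near 0 on the horizontal axis at 0.12, while Srebf1, Fads2 and Elovl6 lie beyond 1 and Mvd below -1.

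Set side by side, the sterol branch had a median log2 change of 0.53 over its 18 tested genes (quartiles 0.29 and 0.73) and the fatty acid branch one of -0.06 over 11 (-0.17 and 0.24), beside -0.01 for all 10540 tested genes (-0.31 and 0.33). The sterol median exceeded the fatty acid median by 0.59, or by 0.53 for enzymes alone, without Srebf1, Srebf2, Insig1 and Stard4. Positive changes were found in 77.8% of sterol genes, 45.5% of fatty acid genes and 48.9% of all tested genes. These shares describe genes that were chosen with earlier results known and carry no test.

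By library, measured from the wild-type mean of each gene, the sterol median was 0.12, -0.02 and -0.12 in WT libraries 1 to 3 and 0.55, 0.36 and 0.59 in Nbr1KO libraries 1 to 3. The Nbr1KO libraries were all above the WT ones. The fatty acid median was -0.08, 0.11 and -0.02 against 0.01, 0.11 and 0.04, so its groups overlapped.

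**Figure D4:**
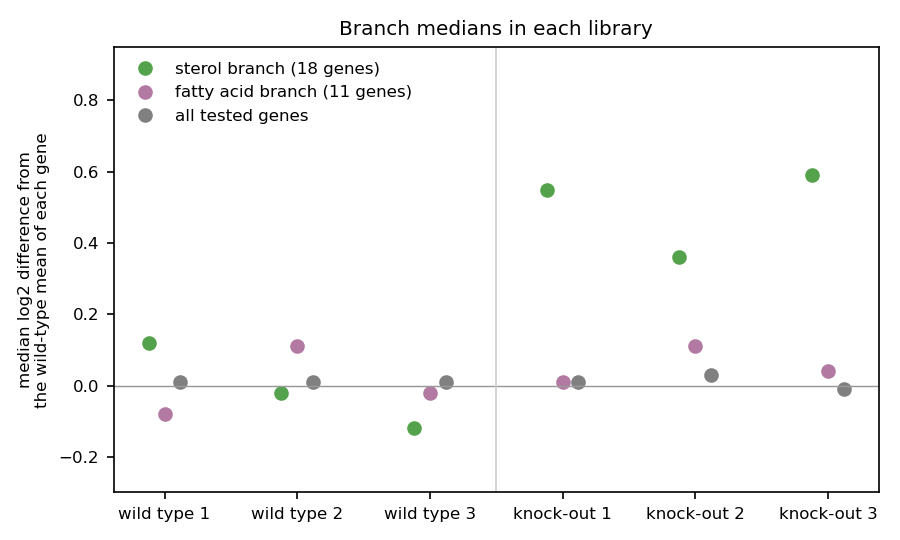
Median log2 difference from each gene's wild-type mean, by library, for the sterol branch, the fatty acid branch and all tested genes. The sterol points of the Nbr1KO libraries lie at 0.36 to 0.59 and those of the WT libraries at -0.12 to 0.12, while the fatty acid points of both labels lie between -0.08 and 0.11.

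Single members were also compared within each set. The log2 change of Msmo1 was 1.68 among WT library 1 and Nbr1KO libraries 1 and 3, and 1.31 among the other libraries. Cyp51 gave 0.69 and 0.74, Sqle 0.84 and 0.63, Mvk 0.78 and 1.06, and Hsd17b7 0.69 and 0.73. These sterol enzymes, like Stard4 at -0.38 and -0.41, had the same direction in both sets. So did Hmgcs1, Lss, Fdft1, Nsdhl, Sc5d, Insig1 and Srebf2. Fdps (0.09 and 0.64) and Acat2 (0.13 and 0.45) kept their sign but changed little in the set of WT library 1. In the fatty acid branch Acss2 (0.77 and 0.60), Fads1 (0.37 and 0.07) and Elovl5 (0.39 and 0.07) kept their sign. Scd1 gave -0.28 and 0.0. Mvd (-0.13 and 0.83), Pmvk (-0.56 and 0.19) and Dhcr7 (-0.78 and 0.53) differed in sign. In the fatty acid branch the same held for Fasn (-0.47 and 0.11), Fads2 (0.60 and -0.27), Scd2 (0.50 and -0.05), Elovl6 (0.41 and -0.12), Acly (0.07 and -0.19), Acaca (-0.01 and 0.19) and Srebf1 (1.01 and -0.03).

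The gap between the branches was not the same within the library sets. Among WT libraries 2 and 3 and Nbr1KO library 2, the sterol median was 0.58 and the fatty acid median 0.00, a gap of 0.58. Among WT library 1 and Nbr1KO libraries 1 and 3, they were 0.46 and 0.39, a gap of 0.07. Each of these compares 1 library with 2 and has no replicate check in 1 label. With a term for the library sets, added after the data were seen, 8 members were called higher and 2 lower, where 26.5% of all tested genes were called (14.3% higher, 12.2% lower). The higher ones were Msmo1, Cyp51, Sqle, Mvk, Hsd17b7, Lss, Hmgcs1 and Acss2, and the lower ones Stard4 and Srebf2. Without WT library 1, 8 members were called higher and 1 lower, where 21.1% of all tested genes were called (12.1% higher, 9.02% lower).

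The other enzymes of the sterol and isoprenoid routes were taken from a list of 16. Of 13 tested, 0 were called by limma, 1 by edgeR and 2 by DESeq2, all higher. Among all tested genes these methods called 4.67%, 5% and 5.74% higher. An unadjusted limma p under 0.05 was found for 5 (38.5%, beside 22.6% of all tested genes), and the median log2 change was 0.30. Erg28, which encodes a scaffold of the demethylation complex in which Msmo1 works, had 164.1, 157.0 and 167.1 normalized counts against 250.7, 223.5 and 272.9. The groups were apart, at a limma adjusted p of 0.0529 and an edgeR adjusted p of 0.0497. Erg28 was called without WT library 1 (limma adjusted p = 0.0239), where 12.1% of all tested genes were called higher.

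Genes that carry, cut or degrade SREBP and its partners numbered 17, all tested. None was called by limma, edgeR or DESeq2, 2 had an unadjusted p under 0.05 (11.8%, beside 22.6% of all tested genes), and the median log2 change was 0.12. Mbtps2, the site-2 protease that frees SREBP from the membrane, had 54.7, 75.6 and 74.5 normalized counts against 31.7, 43.0 and 46.3 (log2 change -0.75, interval -1.31 to -0.18, limma adjusted p = 0.122). Without WT library 1 it was called lower (limma adjusted p = 0.0322), where 9.02% of all tested genes were called lower. Erlin2, an endoplasmic reticulum protein linked to degradation of sterol enzymes, had 105.4, 121.8 and 96.2 against 144.8, 163.3 and 131.7 (log2 change 0.44, adjusted p = 0.185).

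Among genes of sterol uptake, transport, storage and efflux, 2 of 20 tested rose and 2 fell, beside 4.67% and 2.25% of all tested genes. The list's median log2 change was -0.08. Vldlr, the very low density lipoprotein receptor, had 20.0, 21.0 and 21.8 normalized counts in the WT label and 80.6, 83.4 and 98.5 in the Nbr1KO label. The mean was 4.18-fold higher (log2 change 2.01, SE 0.19, limma adjusted p = 0.00207), and the call was kept without each library in turn (adjusted p up to 0.0234). Lrp8, a related receptor that also binds apolipoprotein E, had 10.7, 13.4 and 15.4 against 31.7, 41.3 and 33.2, a 2.68-fold higher mean (adjusted p = 0.025).

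Apoe, the gene of apolipoprotein E, had 165.4, 75.6 and 87.2 normalized counts against 17.2, 6.0 and 16.6, a mean 8.24-fold lower in the Nbr1KO label (log2 change -2.99, SE 0.47, limma adjusted p = 0.0137). Abca1, the exporter that loads cholesterol onto apolipoproteins, had 18.7, 18.5 and 30.9 against 7.2, 6.9 and 8.3, a mean 3.03-fold lower (adjusted p = 0.04). The call of Apoe was lost without WT library 3 or Nbr1KO library 1 or 3 (adjusted p 0.0507 to 0.0535). Those of Lrp8 and Abca1 were lost when any library but WT library 1 was left out (adjusted p 0.0648 to 0.111 and 0.112 to 0.168).

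**Figure D5:**
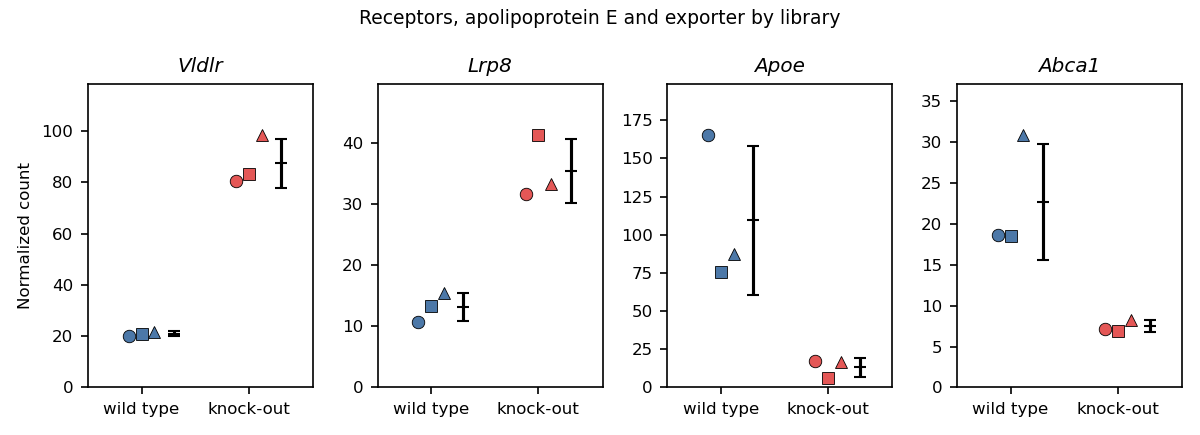
Normalized counts of Vldlr, Lrp8, Apoe and Abca1 in each library, with black marks for the mean and SD of 3 libraries per label; each vertical axis starts at 0. All Nbr1KO points of Vldlr and Lrp8 lie above the WT points, and all those of Apoe and Abca1 lie below.

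Further genes of fatty acid and glycerolipid synthesis were tested beside the fatty acid branch. None of 34 was called by limma, edgeR or DESeq2, 6 had an unadjusted p under 0.05 (17.6%, beside 22.6% of all tested genes), and the median log2 change was 0.24. Slc25a1, the carrier that brings citrate out of mitochondria for both routes, had 116.1, 63.0 and 70.8 normalized counts against 155.7, 128.9 and 148.3 (log2 change 0.83, interval 0.23 to 1.44, limma adjusted p = 0.112). Without WT library 1 it was called higher (limma adjusted p = 0.00562), where 12.1% of all tested genes were called higher. Lpin1, a phosphatidate phosphatase of glycerolipid synthesis, had 41.4, 38.6 and 49.9 against 65.2, 64.5 and 62.9 (log2 change 0.56, adjusted p = 0.134).

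Levels of these genes in bulk RNA cannot tell fewer cells of a type from less RNA per cell, and markers of other cell types were measured beside them. Hepatocytes, which express both routes strongly, gave 6 of 14 markers, whose summed level was 50.7 to 64.5 normalized counts in the WT label and 19.8 to 64.1 in the Nbr1KO label. Albumin, Alb, stood at 22.3 ± 6.2 and 13.0 ± 6.8. None of 6 adipocyte markers was a row of the table used here. Macrophage markers (3 of 10) summed to 12.6 to 14.7 and 16.6 to 27.5, and the single endothelial marker of 8, Kdr, stood at 3.4 to 5.4 and 6.0 to 8.3.

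Some markers listed for other cells differed between the labels, where limma called 4.67% of all tested genes higher and 2.25% lower. Of cholangiocyte and epithelial markers (5 of 6), Sox9 and Cdh1 rose and Spp1 fell, and the sum of the 5 was 141.9 to 162.8 in the WT label and 602.5 to 666.9 in the Nbr1KO label. Most of that difference is Sox9 (15.3 ± 5.8 against 478.6 ± 15.3), while Krt19 stood lower in every Nbr1KO library (49.4 ± 1.9 against 33.7 ± 3.0) without passing the test, and Krt7 overlapped (7.1 ± 3.1 and 9.6 ± 1.5). Of mesothelial markers (7 of 8), Upk3b fell, and the sum was 1807.8 to 2112.8 against 1307.1 to 1580.5. The largest part of that sum is Gpm6a (1050.8 ± 125.5 against 813.0 ± 38.3). Gpm6a and Wt1 stood lower in every Nbr1KO library without passing the test. Msln stood higher in every Nbr1KO library (14.2 ± 4.3 against 22.8 ± 3.6), also without passing. Upk1b and Lrrn4 overlapped, and Krt8 was too low to be tested. Of portal fibroblast and smooth muscle markers (7 of 8), Thy1, Eln, Cnn1 and Lmod1 rose, Lmod1 from 0 reads in every WT library. Cd34 stood lower in every Nbr1KO library (228.2 ± 90.9 against 130.2 ± 16.8) and Fbln2 higher (451.0 ± 81.1 against 630.8 ± 24.2), both without passing the test. The sums of this list were 592.9 to 889.9 and 881.8 to 940.5, which overlap. The part of these cell type markers in the changes of the sterol genes was not tested.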

How the data were processed

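The labels' protocols describe Trizol and column extraction, an input of 200 ng RNA, a QuantSeq 3' forward library kit (molecular identifiers optional) and single-end reads of 75 nucleotides. DESeq2 and GRCm39 are named in the submitters' processing notes. For the aligner, the annotation and the use of strand or identifiers, nothing is given in the sources used here. The deposited values are a signal per gene, namely normalized counts. All values were whole multiples of what 1 read is worth (tolerance 0.01), so reads were recovered, 1508518 to 2383879 per library.

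A gene was tested if 3 libraries or more held at least 10 (10540 genes). The test was limma 3.58.1 with its trend option (R 4.3.3) on log2(value + 1), two-sided, adjusted by Benjamini-Hochberg over all of them at 0.05. This scale understates the change of low genes. Folds are ratios of group means of normalized counts, and intervals are limma's 95% intervals. On simulated data for this comparison (10376 genes), 99.5% of 200 genes changed 4-fold were recovered and 7.01% of the calls were false. The simulated reads had the same dispersion for every gene and no library sets. These rates therefore check the method and do not give the error rates of the real libraries. Every member's ratio of means was under 4-fold. Alternatives included edgeR 4.0.16 and DESeq2 1.42.0 on recovered reads. The members, lists and rule for naming genes were chosen with earlier results of these data known. All members are described, and in 5 further lists the called genes or, with none, the 2 with the smallest p. A gene that this rule names is not reported here. The term for library sets was added after the data were seen. The replicate numbers did not pair the samples. Overlapping genes come from GENCODE M21 on GRCm38, by name, and start-site windows from RefSeq, by symbol.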

Additional observations from a re-analysis of the deposited data

How the results depend on the processing

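All 3 called members kept their calls in edgeR and DESeq2, with quantile or TMM scaling, without a variance trend, with a pseudocount of 0.5 or 5, unfiltered, and with a mean of at least 50. Called genes numbered 729 over the whole table, 380 with a mean of at least 50, where fewer genes were tested, 2791 with a term for the library sets and 200 to 2228 with each library left out. Called members numbered 3, with 10 under the library set term and 1 to 9 with each library left out. For the sterol branch these were 3, 9 and 1 to 9, and for the fatty acid branch 0, 1 and 0. The set term and the comparison within sets were added after the data were seen. Of the 112 other pathway genes tested, 5 were called, 3 of 90 with a mean of at least 50, and 8 in DESeq2. With the set term 35 were called, and 1 to 27 with each library left out, the most without WT library 1. Among all tested genes 6.92% were called by limma, 9.02% by DESeq2, 26.5% with the set term and 21.1% without WT library 1. The sterol median was 0.36 with the set term and 0.42 to 0.66 with each library left out. The fatty acid median was 0.17 with the set term, 0.39 within the set of WT library 1, and -0.02 to 0.03 with each library left out. The gap between branches was 0.19, 0.07 and 0.41 to 0.63 under the same settings. Over 9 genes called by limma, calls were kept in 109 combinations of gene and planned setting and lost in 33, with none in the opposite direction. Over 33 genes not called, 16 such combinations gave a call and 509 did not. Apart from settings with fewer genes or libraries, the cause was not tested.

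Libraries with the same replicate number did not all deviate together, at r = 0.446, 0.699 and -0.623 for numbers 1 to 3, and not every library correlated best with its own number. With that number as a block, 476 genes were called, 1 member (Msmo1), 1 of the sterol branch and 2 of the other pathway genes. At these depths Idi1 and the low Srebf1 libraries hold few reads.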

Other observations

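Genes of fatty acid oxidation and lipid droplets, the routes that use or store what the synthesis genes make, were measured in the same libraries. Of 28 tested, 0 rose and 1 fell in limma, beside 4.67% and 2.25% of all tested genes, and the median log2 change was -0.09. Eci1, a mitochondrial isomerase needed to oxidize unsaturated fatty acids, had 282.8, 230.1 and 231.5 normalized counts in WT libraries 1 to 3 and 131.3, 145.2 and 135.3 in Nbr1KO libraries 1 to 3. All Nbr1KO libraries lay below all WT libraries, and the mean was 1.81-fold lower (log2 change -0.84, SE 0.15, limma adjusted p = 0.0206). The call was lost when any library but WT library 1 was left out (adjusted p 0.063 to 0.133).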
